A study of Mus musculus with 19 samples.

Results

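The genes described here are 51 mouse genes of the unfolded protein response and of the secretory pathway, out of 22180 genes measured in whole spleens of 19 mice. They came from a list of 52 gene symbols; each gene was read from a probe set annotated to that symbol alone, the brightest one where there were several. The one listed gene without such a probe set was the disulphide isomerase Pdia4, whose probe set names several genes, so it has no value. The 51 genes fall into 6 roles: 13 chaperones, 4 disulphide isomerases, 7 sensors, transcription factors and their targets, 9 degradation genes, 12 genes of translocation and signal peptide processing, and 6 genes of vesicle transport.

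Secreted and membrane proteins enter the endoplasmic reticulum (ER) through the Sec61 channel, lose their signal peptide, are folded by chaperones and disulphide isomerases, and leave in COPII vesicles. Proteins that do not fold are pulled back and degraded. Unfolded protein in the ER activates the sensors IRE1 (gene Ern1), ATF6 and PERK: the first pair raise chaperone and degradation genes, through XBP1 and ATF6, and PERK raises translation of ATF4, which activates Ddit3, Trib3, Asns and other stress genes. In the spleen this machinery is known for its high level in antibody-secreting plasma cells.

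The study asked what follows when HGAL, a human adaptor protein of germinal-centre B cells, is expressed in mice from the Rosa26 locus after Cre recombination. Tumour-bearing spleens were profiled from 3 lines, which differ in the driver of Cre: Rosa26-HGAL+Aid-Cre (4 mice; Aid is switched on in activated B cells), Rosa26-HGAL+Mb1-Cre (5 mice; Mb1 is active from early B-cell development) and Rosa26-HGAL+Sca1-Cre (4 mice; Sca1 is active in stem and progenitor cells). Spleens of Rosa26-HGAL+Sca1-Cre mice taken before tumours (3 mice, called pre-tumour here) and of wild-type mice (3 mice) complete the set. All mice were untreated and kept in conventional housing, and all samples are total spleen. The 4 groups other than wild type carry both the Rosa26-HGAL allele and a Cre, so the allele and the Cre cannot be told apart against wild type. Strain, age and sex were not stated, and a control with Cre alone was not analysed here. Each array is labelled a biological replicate. Values are deposited log2 expression values, so a difference of 1 is a change by a factor of 2.

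The sequences that tie part of these genes to the response are shown first, because most of the genes that hold them were low together in one array. The ER stress response element (ERSE, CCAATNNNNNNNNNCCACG), which ATF6 and XBP1 are known to act through, was searched on both strands in RefSeq promoter windows of GRCm38.p6 that run from 250 bases before to 50 after the start site. Of the 52 listed genes 40 had such a window, and 9 of these (22.5%) held the element, against 37 of 27025 genes (0.137%). The list was drawn up as genes of this response and of secretion, so the share is a description and no test. In the stretches below the capitals mark the element, read in either direction, and in Hspa5 also the UPRE core TGACGTG.
Hspa5, chr2:34771918-34772058 (+): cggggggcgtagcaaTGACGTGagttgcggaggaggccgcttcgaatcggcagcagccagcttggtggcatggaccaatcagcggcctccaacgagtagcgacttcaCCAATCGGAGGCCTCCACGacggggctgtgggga
Hsp90b1, chr10:86705518-86705671 (-): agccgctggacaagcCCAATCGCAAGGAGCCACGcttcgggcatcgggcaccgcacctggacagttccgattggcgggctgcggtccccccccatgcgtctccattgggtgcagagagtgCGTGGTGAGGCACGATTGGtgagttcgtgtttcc
Dnajc3, chr14:118937812-118937860 (+): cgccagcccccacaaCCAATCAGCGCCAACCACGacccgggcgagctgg
Calr, chr8:84847060-84847108 (-): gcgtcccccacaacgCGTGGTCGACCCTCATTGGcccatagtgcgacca
Canx, chr11:50325785-50325833 (-): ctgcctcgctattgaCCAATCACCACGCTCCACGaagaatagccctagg
Creld2, chr15:88819505-88819553 (+): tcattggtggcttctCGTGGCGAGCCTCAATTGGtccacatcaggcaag
Pdia6, chr12:17266476-17266524 (+): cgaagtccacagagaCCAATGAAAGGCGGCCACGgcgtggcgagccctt
Syvn1, chr19:6046517-6046565 (+): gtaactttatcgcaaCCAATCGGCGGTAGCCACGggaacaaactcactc
Derl3, chr10:75893227-75893275 (+): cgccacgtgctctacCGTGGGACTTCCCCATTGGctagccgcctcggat
Hsp90b1 held the element in both orientations, and the remaining 8 held it in 1 copy. A shorter form, ERSE-II (ATTGG, any base, then CCACG), was in 2 members (5.0%), Dnajb11 and Herpud1, against 0.0444% of genes. The UPRE core TGACGTG was in Hspa5 and Sec24d (5.0%), against 2.22% of genes. The amino acid response element CARE (TGATGNAA), an ATF4 motif, was in 3 members (7.5%), Asns, Trib3 and Herpud1, against 4.51% of genes. Sec24d is shown because it differed between the tumour lines, and Asns and Herpud1 because they separate from the chaperones in the array described last; the capitals mark the UPRE core, the CARE, and the CARE with the ERSE-II, in that order.
Sec24d, chr3:123267455-123267491 (+): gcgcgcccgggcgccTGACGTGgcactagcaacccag
Asns, chr6:7693210-7693247 (-): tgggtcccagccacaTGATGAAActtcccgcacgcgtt
Herpud1, chr8:94386302-94386402 (+): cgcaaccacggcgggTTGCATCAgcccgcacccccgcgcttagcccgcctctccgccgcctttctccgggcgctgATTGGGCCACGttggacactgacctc
A match describes the letters of the window and is no measure of binding.

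As a group the members are bright: their median level over the 19 arrays was 8.69, against 5.60 for all genes, and 40 of the 51 were brighter than 80% of genes. The chaperone Hsp90b1 was the brightest, at 11.44, and the channel subunit Sec61b the dimmest, at 4.92. That mean lies under the 40th percentile of all genes on every array (4.98 to 5.10), so the values of Sec61b are close to background. Their median SD over the 19 arrays was 0.272, against 0.191 for all genes. The widest spread was that of Asns, asparagine synthetase, whose SD was 1.20. For 5 members a second probe set exists. It followed the first over the arrays for Spcs2 (r = 0.753) and Ssr1 (0.683), and more weakly for Edem1 (0.455). It did not for Derl2 (-0.037) or Sec61b (-0.022). In Edem1 (mean 5.34), Derl2 (4.56) and Sec61b (4.26) the second probe set was dim, under the median level of all genes. Array medians lay between 5.23 and 5.4, and arrays of 1 group correlated between 0.929 and 0.991.

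**Figure D1:**
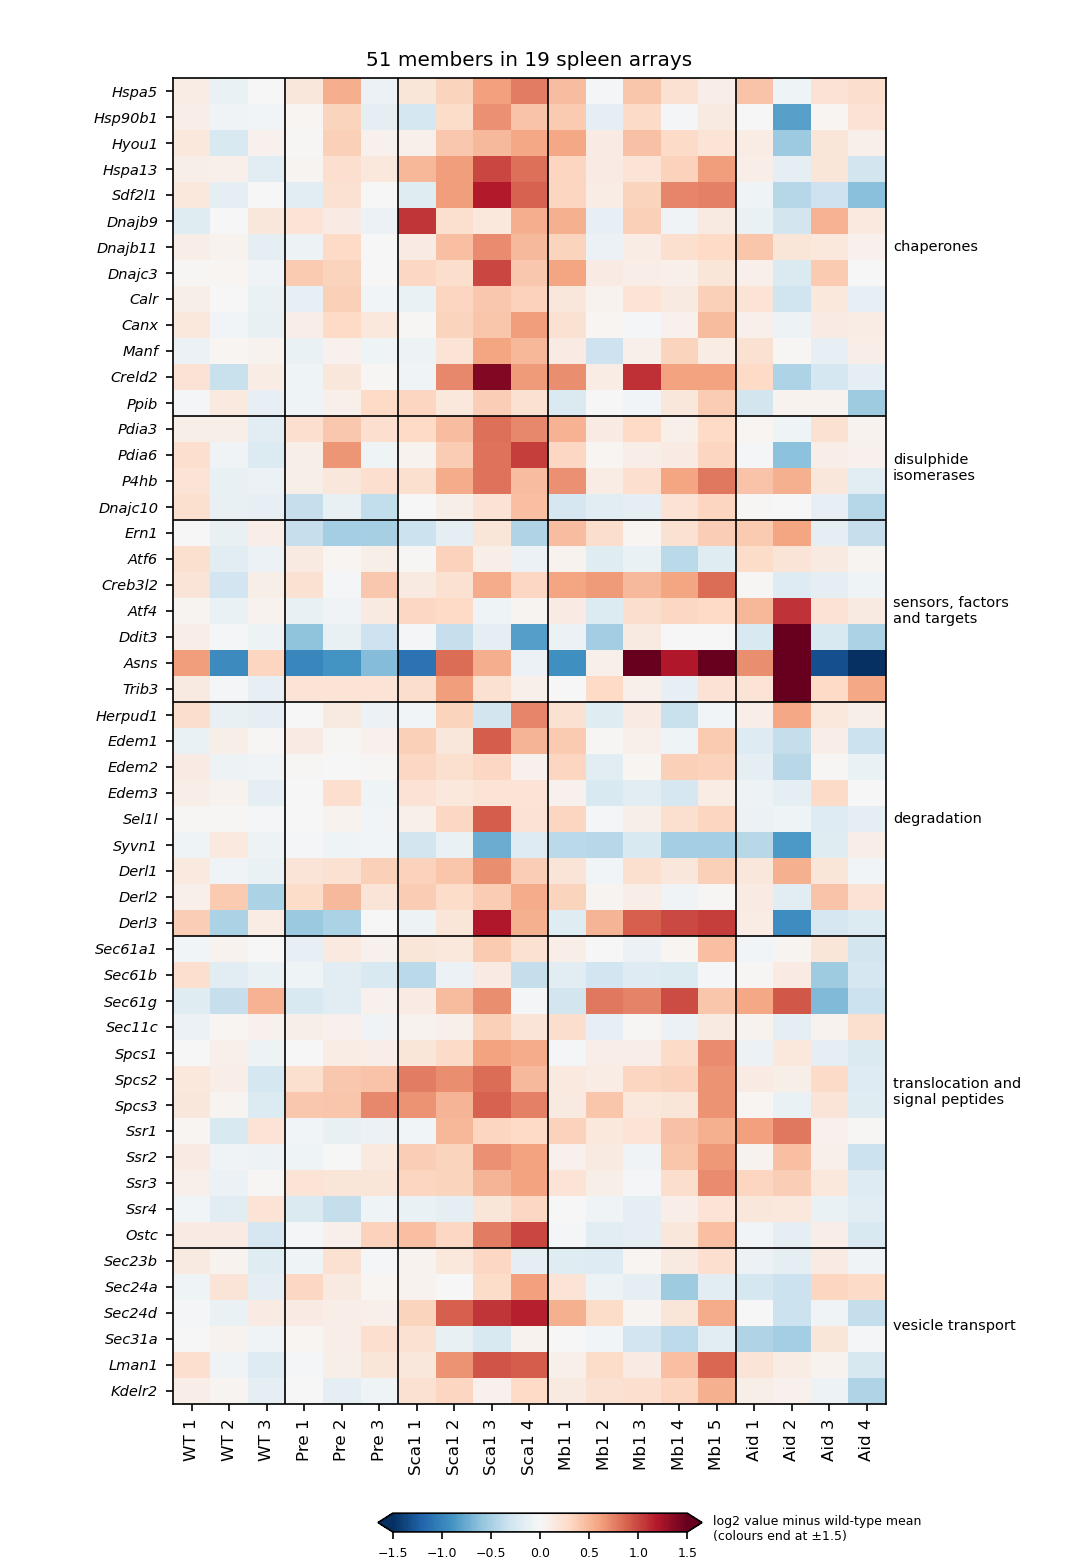
Log2 value of each of 51 members (vertical, by role) in each of 19 arrays (columns, WT for wild type, Pre for Sca1-Cre pre-tumour, Sca1, Mb1 and Aid for the tumour lines), minus the mean of the 3 wild-type arrays. Red is above and blue below that mean; colours end at 1.5 either way. Sca1-Cre tumour replicates 3 and 4 are red for most members, and Aid-Cre tumour replicate 2 is blue in many chaperones and dark red at Ddit3, Asns and Trib3.

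Sca1-Cre tumour spleens had the highest group mean over all members, 0.33 above wild type. Array means ran from 0.13 to 0.50 and overlapped with Mb1-Cre tumours (0.03 to 0.38), and the highest in wild type was 0.10. For the sensors, transcription factors and their targets the Sca1-Cre mean (0.05) was below those of Aid-Cre (0.25) and Mb1-Cre tumours (0.24). In Sca1-Cre tumours 46 of 51 members were above wild type, with a median difference of 0.32. Over all genes 48.9% were higher. By limma's moderated test 25 members (49% of 51) had an unadjusted p under 0.05, all 25 in the direction of higher; over all genes 11.4% passed that mark, 6.12% higher and 5.25% lower, and among genes above the median level 9.73% were higher. After Benjamini-Hochberg adjustment over the 22180 genes 0 members passed 0.05, the smallest adjusted p being 0.0826; 9 genes of any kind passed (0.0406%). In 19 members the 4 tumour values all lay above the 3 wild-type values, against 6.21% of genes, and in 1, Syvn1, all lay below, against 5.86%. Without Sca1-Cre tumour replicate 3 the count at an unadjusted p under 0.05 was 20, and without wild type replicate 2 it was 18.

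Among the chaperones 13 of 13 were higher, with a median difference of 0.44, and 9 had an unadjusted p under 0.05. Hspa13, an ER-associated chaperone of the Hsp70 family, stood at 6.53, 6.65, 7.03 and 6.86 in the 4 Sca1-Cre tumours and at 6.12, 6.11 and 5.86 in wild type. The groups did not overlap, and the difference was 0.74 ± 0.14 (SE; adjusted p = 0.0826). Hspa5 encodes BiP, the main Hsp70 chaperone of the ER and the protein that holds the stress sensors inactive; it stood at 9.11, 9.26, 9.54 and 9.69 in the tumours and at 9.03, 8.83 and 8.92 in wild type. Every tumour value was above every wild-type value, by 0.48 ± 0.17 on average (adjusted p = 0.287). The co-chaperone Dnajb11, which works with BiP, was higher by 0.44 ± 0.14 without overlap (adjusted p = 0.236). Hsp90b1, the ER form of Hsp90, stood at 11.09, 11.63, 12.05 and 11.79 against 11.45, 11.31 and 11.32. Its tumour values lay on both sides of wild type, and the difference of 0.28 ± 0.23 had an adjusted p of 0.708.

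The disulphide isomerases, which form and reshuffle disulphide bonds, were higher in 4 of 4, with a median difference of 0.55, and 3 had an unadjusted p under 0.05. Pdia3, which acts on glycoproteins held by calnexin and calreticulin, stood at 10.49, 10.66, 11.01 and 10.91 in the tumours and at 10.28, 10.28 and 10.03 in wild type. The difference was 0.58 ± 0.13 without overlap (adjusted p = 0.125). P4hb, protein disulphide isomerase itself, was higher by 0.52 ± 0.18 (adjusted p = 0.287), again without overlap.

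Of the 12 genes of translocation and signal peptide processing 11 were higher, with a median difference of 0.36, and 6 had an unadjusted p under 0.05. The subunits of the signal peptidase, which removes signal peptides, were among the largest differences. Spcs3 stood at 9.71, 9.55, 9.93 and 9.80 in the tumours and at 9.20, 9.08 and 8.83 in wild type, a difference of 0.71 ± 0.14 (adjusted p = 0.0826). Spcs2 stood at 9.05, 8.98, 9.12 and 8.76 against 8.43, 8.38 and 8.02, a difference of 0.70 ± 0.14 (adjusted p = 0.092). Neither overlapped with wild type, and the peptidase's catalytic subunit Sec11c differed by only 0.17 ± 0.11 (adjusted p = 0.59). Ostc, a subunit of the oligosaccharyltransferase that adds N-glycans, was higher by 0.63 ± 0.17 (adjusted p = 0.2). The channel's main subunit Sec61a1 stood at 9.89, 9.87, 10.10 and 9.94 against 9.66, 9.76 and 9.70, without overlap; the difference was small, 0.24 ± 0.12 (adjusted p = 0.483).

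Of the 6 vesicle transport genes 5 were higher (median 0.23), and 2 had an unadjusted p under 0.05. Sec24d, a cargo adaptor of the COPII coat, stood at 6.82, 7.37, 7.55 and 7.64 in the Sca1-Cre tumours and at 6.45, 6.38 and 6.61 in wild type. All 4 tumours were above all 3 controls, and the difference of 0.87 ± 0.17 was the largest of any member in this comparison (adjusted p = 0.0826). The adjusted p of Sec24d was 0.0133 without Sca1-Cre tumour replicate 1. That array is the lowest of the 4, so leaving it out raises the difference by itself. In every other run without 1 array of these groups 0 members passed. Lman1, the lectin that carries glycoproteins from the ER to the Golgi, stood at 8.18, 8.69, 8.95 and 8.92 against 8.27, 7.96 and 7.81. Replicate 1 fell within the wild-type range and the other 3 above it, with a difference of 0.67 ± 0.20 (adjusted p = 0.212). Kdelr2, the receptor that returns escaped ER proteins, differed by 0.23 ± 0.12 (adjusted p = 0.512).

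Among the 9 degradation genes 8 were higher (median 0.38) and 4 had an unadjusted p under 0.05. The channel-forming Derl1 stood at 9.64, 9.71, 9.99 and 9.66 in the tumours against 9.44, 9.24 and 9.19, without overlap, a difference of 0.46 ± 0.13 (adjusted p = 0.2). Edem1, which marks misfolded glycoproteins for disposal, was higher by 0.49 ± 0.16 without overlap (adjusted p = 0.249). Derl3, a paralogue of Derl1, ranged widely among the tumours, at 6.60, 6.86, 7.88 and 7.22 against 7.05, 6.20 and 6.79 in wild type (0.46 ± 0.34; adjusted p = 0.661). Syvn1, the ubiquitin ligase HRD1 at the centre of this machinery, lay on the other side: 8.19, 8.37, 7.72 and 8.27 in the tumours against 8.40, 8.61 and 8.39 (-0.33 ± 0.18; adjusted p = 0.513). Its partner Sel1l was higher by 0.38 ± 0.14 (adjusted p = 0.318).

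Of the 7 sensors, factors and targets 5 were above wild type, the median difference was 0.09, and 1 had an unadjusted p under 0.05: Creb3l2, a membrane-bound transcription factor related to ATF6, at 0.31 ± 0.13 (adjusted p = 0.384). Ern1, the sensor IRE1, stood at 7.04, 7.23, 7.55 and 6.92 in the Sca1-Cre tumours and at 7.38, 7.26 and 7.46 in wild type (-0.18 ± 0.19; adjusted p = 0.779). Atf6 differed by 0.09 ± 0.12 (adjusted p = 0.825) and Atf4 by 0.15 ± 0.18 (adjusted p = 0.823). Ddit3, which encodes the stress-induced factor CHOP, stood at 7.60, 7.29, 7.50 and 6.81 against 7.73, 7.61 and 7.55 (-0.33 ± 0.36; adjusted p = 0.792).

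**Figure D2:**
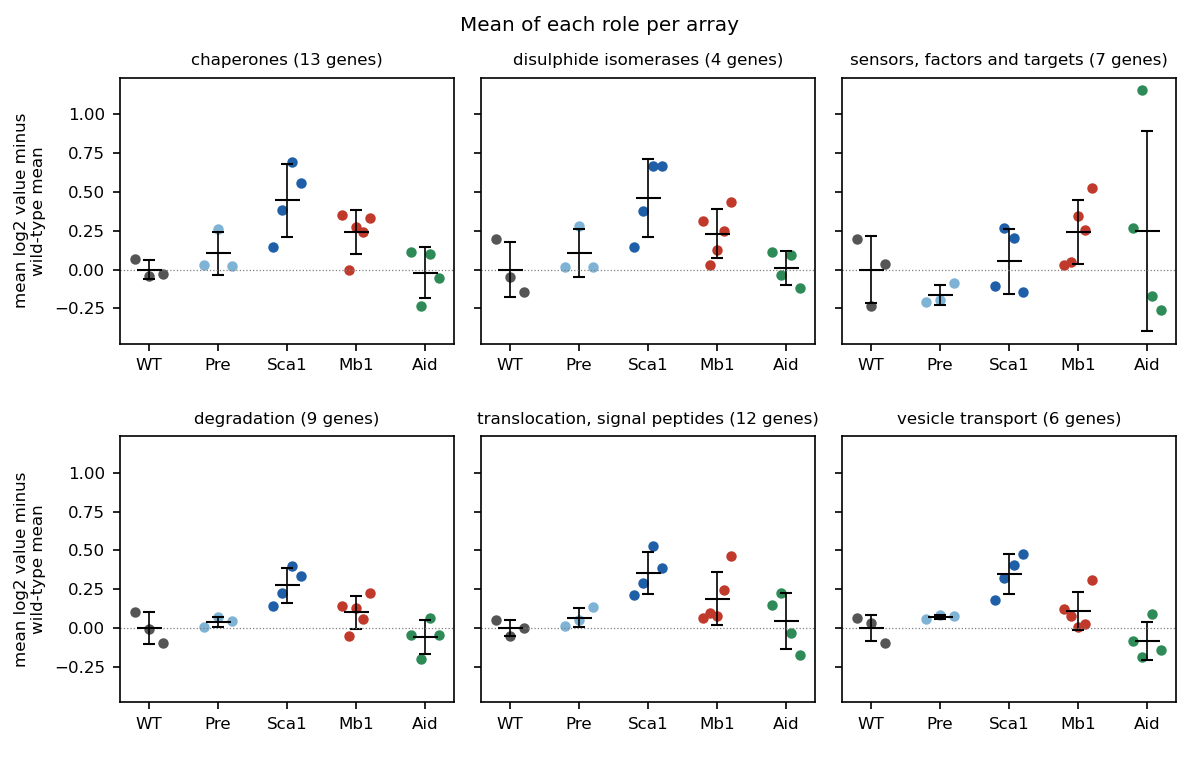
Mean over the genes of each role of the log2 value minus the wild-type mean (vertical axis, log2), 1 point per array in the 5 groups (WT, Pre, Sca1, Mb1, Aid); bars are group mean and SD. Chaperone means of the Sca1-Cre tumours were 0.15, 0.38, 0.69 and 0.56, and in the panel of sensors, factors and targets Aid-Cre tumour replicate 2 stands alone at 1.16.

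**Figure D3:**
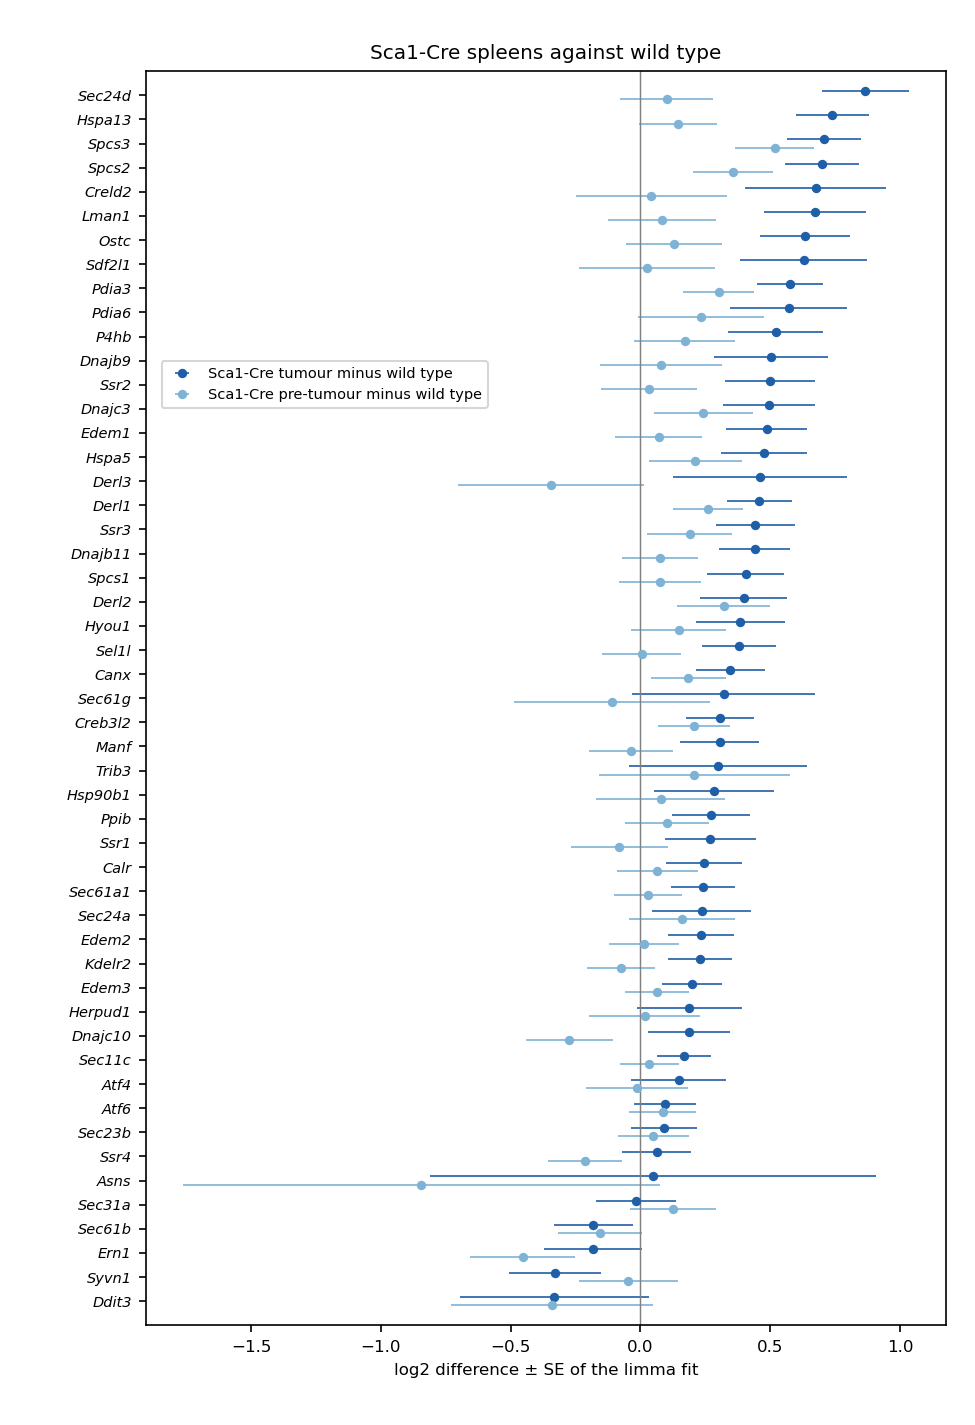
Difference from wild type of each of 51 members in Sca1-Cre tumours (dark, 4 arrays) and Sca1-Cre pre-tumour spleens (light, 3 arrays), on the log2 scale, with the SE of the limma fit, ordered by the tumour difference. In the tumours 46 of 51 points lie right of 0, from Sec24d at 0.87 at the top to Ddit3 at -0.33 at the bottom; both comparisons share the 3 wild-type arrays.

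Within the Sca1-Cre tumours the difference was not even. Replicate 3 had the highest value of all 19 arrays in 20 of 51 members (39.2%), against 4.44% of all genes, and replicate 4 in 11 (21.6%), against 11.3% of all genes and 17.2% of those above the median level, so that the share of replicate 4 is near the background; replicates 1 and 2 had it in 1 member each. The members highest in replicate 3 include 5 of the 9 ERSE genes, among them Hsp90b1, Creld2 (9.84) and Derl3. Over the 9 ERSE members the median difference of Sca1-Cre tumours from wild type was 0.46, with 8 above 0. Over the 30 measured members with a promoter window but no ERSE it was 0.28. Other comparisons did not show this gap. Against pre-tumour spleens the Sca1-Cre tumour medians were 0.254 with the ERSE and 0.272 without. Against wild type they were 0.184 and 0.177 in Mb1-Cre tumours, and -0.115 and 0.025 in Aid-Cre tumours. A difference by ERSE was not tested.

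Cell-type markers differed too, and their part in these differences was not tested. The plasma cell list was above wild type in 9 of 12 genes (median 0.18), with array means of 0.28, 0.05, 0.42 and 0.27 in the 4 Sca1-Cre tumours and from -0.15 to 0.10 in wild type. None of its 12 genes was under the 40th percentile in every group. Tnfrsf17 was under it in both groups compared here, Sca1-Cre tumours (mean 4.89) and wild type (4.97), so its difference is close to background. Among its genes Eaf2 was higher by 0.88 ± 0.43 (SE), Slamf7 by 0.62 ± 0.39, Cd28 by 0.54 ± 0.32 and Prdm1, the regulator of plasma cell fate, by 0.45 ± 0.25 (adjusted p = 0.457, 0.591, 0.556 and 0.521). Cd28 is also on the T cell list, so it counts in both lists. Eaf2 ran from 5.36 to 8.10 in the Sca1-Cre tumours with a median of 5.94, and reached 5.62 in wild type. Its difference therefore rests largely on the highest tumour array. Smaller differences were those of Jchain (0.19 ± 0.25), Sdc1 (0.16 ± 0.14), Mzb1 (0.12 ± 0.31) and Irf4 (0.05 ± 0.46), and Tnfrsf17 (-0.09 ± 0.23) and Fkbp11 (-0.12 ± 0.24) were below wild type. The list's 1 gene with an unadjusted p under 0.05 in the direction of higher was the ER isomerase Txndc5 (0.79 ± 0.29; adjusted p = 0.313), itself a secretory gene. Ell2, an elongation factor of plasma cells, was the one on the lower side (-0.58 ± 0.17; adjusted p = 0.212). The B cell list was lower in 11 of 11 genes (median -0.88), with array means of -0.01, -0.46, -2.17 and -0.47, the lowest in replicate 3. T cell genes were higher in 9 of 9 (median 0.42) neutrophil genes in 12 of 12 (0.67), macrophage genes in 8 of 10 (0.26) and proliferation genes in 6 of 11 (0.06). Erythroid genes were lower in 5 of 5 (median -0.56) and pancreas genes in 11 of 12 (-0.56), of which 5 lay near background in all groups. Array means of the pancreas list ran from -0.56 to -0.43 in the Sca1-Cre tumours. In wild type they ran from -0.45 to 0.82 with a median of -0.37, so its difference rests largely on the highest wild-type array. In these whole spleens fewer cells of a type and less RNA per cell cannot be told apart.

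In these genes the Sca1-Cre spleens taken before tumours stood close to wild type. In the pre-tumour group 38 of 51 members were above wild type, against 52.6% of genes, by a median of 0.07, and 4 had an unadjusted p under 0.05, 3 higher and 1 lower (7.84%, against 5.47% of genes, 3.07% higher and 2.4% lower). By limma 0 members passed the adjusted threshold (smallest adjusted p 0.655), and 1 gene of all did (0.00451%). The 3 higher members were Spcs3, Spcs2 and Pdia3. Spcs3 stood at 9.45, 9.46 and 9.76, above all 3 wild-type values, a difference of 0.52 ± 0.15 (adjusted p = 0.655). Spcs2 stood at 8.52, 8.69 and 8.70 (0.36 ± 0.15; adjusted p = 0.883) and Pdia3 at 10.44, 10.60 and 10.44 (0.30 ± 0.14; adjusted p = 0.883), both without overlap. The lower one was Ern1, at 7.02, 6.85 and 6.87, below all wild-type values by -0.45 ± 0.20 (adjusted p = 0.883). The main chaperones were nearer to wild type, Hspa5 at 0.21 ± 0.18 (adjusted p = 0.918) and Hsp90b1 at 0.08 ± 0.25 (adjusted p = 0.991), and so was Sec24d at 0.10 ± 0.18 (adjusted p = 0.965). In all, 6 members lay wholly above and 2 wholly below wild type, against 8.35% and 8.49% of genes, shares near the background. Marker lists were further from wild type in these spleens: proliferation genes were lower in 11 of 11 (median -1.56) and erythroid genes in 5 of 5 (-1.71), T cell genes higher in 9 of 9 (0.58) and plasma cell genes in 6 of 12 (-0.01). Their part was not tested.

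Set directly against pre-tumour spleens, Sca1-Cre tumours were higher in 48 of 51 members, against 47.3% of genes, by a median of 0.27. An unadjusted p under 0.05 was reached by 17 members (33.3%), all higher, against 5.34% of genes, 2.42% higher and 2.93% lower; 0 members and 0 genes (0%) passed after adjustment, with a smallest adjusted p of 0.851 for members. The count of 17 became 8 without Sca1-Cre tumour replicate 3 or without pre-tumour replicate 1, and 11 without tumour replicate 4 or pre-tumour replicate 3. Sec24d had pre-tumour values of 6.60, 6.58 and 6.56, all below the lowest tumour value of 6.82, a difference of 0.77 ± 0.17. Hspa13 differed by 0.59 ± 0.14 from pre-tumour values of 6.06, 6.27 and 6.18, also without overlap. The signal peptidase genes whose pre-tumour values lay above wild type, without being called there, differed by 0.19 ± 0.14 (Spcs3) and 0.34 ± 0.14 (Spcs2). Lman1 differed by 0.59 ± 0.20 and Derl3 by 0.81 ± 0.34, with overlap in both. Of the sensors, factors and targets 7 of 7 were above pre-tumour spleens (median 0.10), from Atf6 at 0.01 ± 0.12 and Ddit3 at 0.01 ± 0.36 to Asns at 0.89 ± 0.86, and 0 had an unadjusted p under 0.05. Of 19 other integrated stress response targets 16 were above (median 0.28), and 1 had an unadjusted p under 0.05. Groups did not overlap in 12 members above and 1 below, against 3.85% and 4.51% of genes. Marker lists differed between these groups, and their part was not tested. Proliferation genes were higher in 11 of 11 (median 1.59), with the pre-tumour spleens low and the tumours near wild type. Neutrophil genes were higher in 12 of 12 (0.92), erythroid genes in 5 of 5 (1.27) and plasma cell genes in 8 of 12 (0.08); B cell genes were lower in 11 of 11 (-0.66) and pancreas genes in 12 of 12 (-0.53).

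Mb1-Cre tumours were above wild type in 42 of 51 members, against 50.1% of genes, by a median of 0.18. They had 9 members (17.6%) at an unadjusted p under 0.05, 8 higher and 1 lower, against 11.3% of genes, 5.13% higher and 6.2% lower. Groups did not overlap in 4 members above (Creb3l2, Dnajc3, Hspa13 and Kdelr2; 4.1% of genes) and 1 below (Syvn1; 5.38%), and these shares are near the background. By limma 0 members and 0 genes (0%) passed after adjustment. The count of 9 was 4 without Mb1-Cre replicate 5, which had the highest value of 19 arrays in 6 members, and 5 without wild type replicate 2 or 3. The leading member was Creb3l2, at 7.41, 7.46, 7.30, 7.40 and 7.66 in the 5 tumours and 7.01, 6.53 and 6.90 in wild type. Every tumour was above every control, and the difference of 0.63 ± 0.12 had an adjusted p of 0.156. P4hb was higher by 0.48 ± 0.17 (adjusted p = 0.317) and Kdelr2 by 0.29 ± 0.12 (adjusted p = 0.372). Creld2, a secreted ER stress-inducible chaperone, differed by 0.62 ± 0.26 (adjusted p = 0.395), and Hspa13 by 0.33 ± 0.13 (adjusted p = 0.386). Syvn1 was again on the lower side, at 8.06, 8.05, 8.23, 7.96 and 7.95, below all wild-type values (-0.41 ± 0.17; adjusted p = 0.385). Derl3 split the group: replicate 1 stood at 6.49, within the wild-type range, and the other 4 from 7.19 to 7.72 (0.65 ± 0.32; adjusted p = 0.459). Hspa5 (0.23 ± 0.16; adjusted p = 0.588) and Hsp90b1 (0.13 ± 0.22; adjusted p = 0.849) stood near wild type.

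Neutrophil genes moved with the Mb1-Cre group: 12 of 12 were higher than in wild type (median 2.29), with array means between 1.78 and 2.77 against -1.12 to 1.03 in wild type, and 0 of the 12 lay near background in every group. The pancreas list stood at 2.68 in Mb1-Cre replicate 2 and 0.82 in wild type replicate 2, against at most 0.22 in the other arrays; pancreas, rich in secretory machinery, lies beside the spleen. The other 4 Mb1-Cre arrays had pancreas means from -0.40 to -0.38, so the group's 11 of 12 higher pancreas genes (median 0.26) rest on replicate 2. Against wild type the B cell list was lower in 11 of 11 genes (median -1.13) and the T cell list lower in 9 of 9 (-0.65). In Mb1-Cre replicate 2 the mean over all members was 0.03, the lowest of its group. Without both of these arrays the median member difference of each comparison moved by less than the spread between replicates. That spread is the pooled within-group SD of the array medians over members, 0.12. Single-gene results did change without these arrays. Fewer members had an unadjusted p under 0.05 for all tumours and for Aid-Cre tumours, and the call of Sec24d over the 3 lines was lost. The part of these cell types in the member differences was not tested.

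In Aid-Cre tumours the members as a group stood where wild type did: 27 of 51 were above, against 51.4% of genes, with a median difference of 0.01. An unadjusted p under 0.05 was reached by 3 members (5.88%, all higher), against 8.3% of genes, 3.95% higher and 4.35% lower, and 0 passed adjustment by limma (smallest adjusted p 0.502), while 4 genes of all did (0.018%). The 3 were Atf4, Trib3 and Ssr1. Groups did not overlap in 2 members above (Atf4 and Trib3; 3.75% of genes) and 1 below (Sel1l; 3.45%), near the background. Without Aid-Cre replicate 2 the count was 1, without replicate 4 it was 6, and without wild type replicate 2 it was 0. The transcription factor Atf4, effector of the PERK arm, stood at 9.25, 9.82, 8.97 and 8.88 against 8.79, 8.65 and 8.80 in wild type. All 4 tumours were above all 3 controls, by 0.48 ± 0.18 (adjusted p = 0.502). Trib3, a pseudokinase induced by ATF4 and CHOP, stood at 5.23, 7.35, 5.32 and 5.61 against 5.16, 5.01 and 4.90, also without overlap (0.85 ± 0.34; adjusted p = 0.525). Replicate 2 made most of that difference, and the other 3 were within 0.5 of the wild-type maximum. The wild-type values of Trib3 lay near the 40th percentile of all genes (4.98 to 5.10 over the arrays), close to background. All 3 pre-tumour arrays had the same Trib3 value as the lowest Aid-Cre tumour, 5.23. Ssr1, a subunit of the TRAP complex at the channel, differed by 0.37 ± 0.18 (adjusted p = 0.601). Hspa5 (0.21 ± 0.17; adjusted p = 0.792), Hsp90b1 (-0.14 ± 0.23; adjusted p = 0.915) and Sec24d, with values of 6.49, 6.15, 6.43 and 6.12, stood near or below wild type. Among the degradation genes Syvn1 stood at 8.05, 7.61, 8.28 and 8.57 (-0.34 ± 0.18; adjusted p = 0.645), so that here it overlapped with wild type. The B cell list was lower in 11 of 11 genes (median -1.03), the T cell list in 9 of 9 (-0.41) and the plasma cell list in 9 of 12 (-0.14), and their part was not tested.

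The 3 tumour lines differed from each other in Sec24d. In the moderated F-test over the 3 lines it was the 1 member called (adjusted p = 0.0441), among 11 genes of all (0.0496%), and 23 members had an unadjusted p under 0.05, against 16.3% of genes and 23.8% of those above the median level. The Sca1-Cre values of 6.82, 7.37, 7.55 and 7.64 were above the Aid-Cre values throughout, and so were the Mb1-Cre values of 7.01, 6.76, 6.52, 6.66 and 7.04. Replicate 1 of the Sca1-Cre line lay within the Mb1-Cre range. The call was lost under 5 of 9 alternatives: with only the groups compared (adjusted p = 0.179), a variance trend and robust fit (0.0525), the replicate block (0.178), a score of sex-linked transcripts (0.0624), and without both arrays with pancreatic transcripts (0.0744). It also depended on single arrays: of 13 runs that left out 1 tumour array each it held in 4, with adjusted p from 0.00348 (without Sca1-Cre tumour replicate 1) to 0.122 (without replicate 4). The runs that lost it left out Aid-Cre replicates 1, 2 or 4, Mb1-Cre replicates 2, 4 or 5, or Sca1-Cre replicates 2, 3 or 4.

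The next members in that test were Creb3l2 (adjusted p = 0.0561), Hspa13 (0.0596), Spcs3 (0.0798) and Ostc (0.0935). They do not share 1 pattern: Creb3l2 was highest in Mb1-Cre tumours, with Aid-Cre values of 6.83, 6.62, 6.68 and 6.75 and no overlap between those lines. Hspa13, Spcs3 and Ostc were highest in Sca1-Cre tumours. By the size of the difference from wild type, 38 members were highest in the Sca1-Cre line, 6 in the Mb1-Cre line and 7 in the Aid-Cre line, a description with no test. Over all 5 groups 22 members had an unadjusted p under 0.05, against 15.2% of genes; by limma 0 passed adjustment (smallest adjusted p 0.08), against 10 genes of all (0.0451%).

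**Figure D4:**
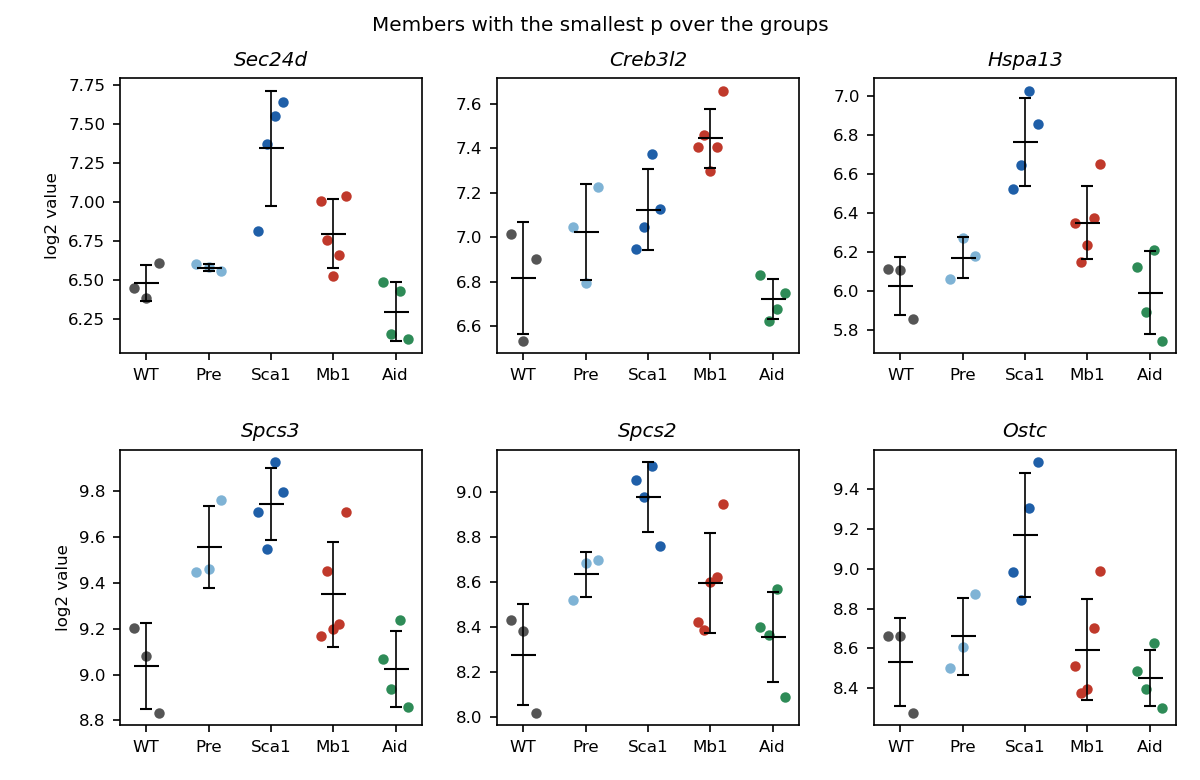
Log2 values of 6 members with small p in the tests over the groups, 1 point per array in the 5 groups (WT, Pre, Sca1, Mb1, Aid), with group mean and SD; each panel has its own vertical axis. Sec24d separates Sca1-Cre tumours (6.82 to 7.64) from Aid-Cre tumours (6.12 to 6.49), and Creb3l2 is highest in Mb1-Cre tumours (7.30 to 7.66).

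With the 3 lines weighted equally, tumours were above wild type in 47 of 51 members, against 51.5% of genes, by a median of 0.21. At an unadjusted p under 0.05 there were 14 members (27.5%), 13 higher and 1 lower (Syvn1, -0.36 ± 0.15), against 8.93% of genes, 3.9% higher and 5.03% lower; by limma 0 members passed adjustment (smallest adjusted p 0.409), against 4 genes of all (0.018%). The count was 6 without wild type replicate 2 and 4 without wild type replicate 3. The smallest p belonged to Spcs2 (0.37 ± 0.12; adjusted p = 0.409) and Hspa13 (0.34 ± 0.12; adjusted p = 0.423). Only Sec31a, a COPII coat subunit, Sec61b and Syvn1 were below wild type in all 3 lines. In 0 members did all 13 tumours lie above or below all 3 controls, against 0.243% and 0.469% of genes. The comparisons with wild type share its 3 arrays, so they are not independent of each other.

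Among the sensors, factors and targets single arrays stood out, for reasons that were not tested. Aid-Cre tumour replicate 2 had the highest value of all 19 arrays for 6 members (11.8%, against 9.61% of genes), and 5 of them belong to the 7 sensors, factors and targets: Ern1 (7.97), Atf4 (9.82), Ddit3 (9.28), Asns (10.34) and Trib3 (7.35). Ddit3 in the other 3 Aid-Cre tumours was 7.40, 7.40 and 7.16, and over the other 18 arrays it did not exceed 7.77. The same array had the lowest value of all 19 for 13 members (25.5%, against 10.5% of all genes and 16.3% of those above the median level). Those 13 include 7 of the 9 members whose promoters hold the ERSE shown above: Hsp90b1 (10.54, others from 11.09), Dnajc3, Calr, Creld2, Pdia6, Syvn1 and Derl3. The other ERSE genes were Hspa5, at 8.86, and Canx, at 10.57, both within the wild-type range. Herpud1, whose window holds both the CARE and the ERSE-II, stood at 10.17 there, above 9.68 to 9.75 in the rest of its group.

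Other targets of the integrated stress response, which ATF4 drives, stood apart in the same array. Of 19 measured genes of that list 12 (63.2%) were highest of all 19 arrays in Aid-Cre replicate 2, and the list's mean there was 0.92 above wild type, against -0.20 to 0.41 in the other 18 arrays. The widest gaps, picked after their values were seen, were those of the cystine transporter Slc7a11 (6.73, others at most 5.58), the glutathione-degrading Chac1 (7.22, others at most 6.11) and Sesn2 (8.04, others at most 7.08). The serine synthesis genes Psat1 and Phgdh were higher elsewhere, in Sca1-Cre replicate 4. Vldlr, Ddit4, Wars and Cth were also higher in other arrays. Stc2 was the lowest of all 19 in Aid-Cre replicate 2 (5.01, others from 5.12). In marker lists this array had the lowest B cell mean (-3.59, others from -2.17) and plasma cell mean (-0.83, others from -0.18) of the 19. Its T cell mean was -1.66, beside -1.24 in Mb1-Cre replicate 5, and its neutrophil mean of 2.34 lay within the Mb1-Cre range. The part of these cells was not tested. Aid-Cre replicate 4 was the lowest of 19 in 13 members too (25.5%, against 6.59% of genes), but in other ones, among them Sdf2l1, Spcs1, Lman1, Kdelr2 and Asns (6.19), with 0 ERSE genes among them.

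Asns, whose product makes asparagine and whose promoter carries the CARE shown above, ran from 6.19 to 10.34. It stood at 8.52, 6.94 and 8.21 in wild type, at 6.91, 6.99 and 7.24 before tumours, at 6.78, 8.73, 8.44 and 7.80 in Sca1-Cre tumours, at 6.97, 7.96, 9.43, 9.09 and 10.03 in Mb1-Cre tumours and at 8.58, 10.34, 6.57 and 6.19 in Aid-Cre tumours. Every tumour line held high and low arrays, and no comparison came near its threshold (Mb1-Cre 0.81 ± 0.82, adjusted p = 0.73; Aid-Cre 0.03 ± 0.86, adjusted p = 0.995). Over the 19 arrays Asns followed the mean of 11 proliferation genes, with Pearson r = 0.878 (permutation p = 1e-05, the smallest that 100000 resamples can give; adjusted p = 8e-05 over 8 lists) and Spearman rho = 0.895 (permutation p = 1e-05, adjusted p = 4e-05). Leaving out the 2 arrays farthest from the median of that list gave r = 0.902, and within groups, as deviations from group means, r = 0.863. Erythroid genes (r = 0.827, rho = 0.902; adjusted permutation p = 8e-05 for r) and neutrophil genes (r = 0.737, rho = 0.758; adjusted permutation p = 0.000656) ran the same way. T cell genes (r = -0.81, rho = -0.756; adjusted permutation p = 0.000107) and B cell genes (r = -0.715, rho = -0.696; adjusted permutation p = 0.000656) ran the opposite way. Macrophage (r = 0.27), plasma cell (r = -0.389) and pancreas genes (r = -0.148) missed the threshold (adjusted permutation p from 0.129 to 0.581). The lists vary together over these arrays, so these lists cannot be told apart as companions of Asns.

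**Figure D5:**
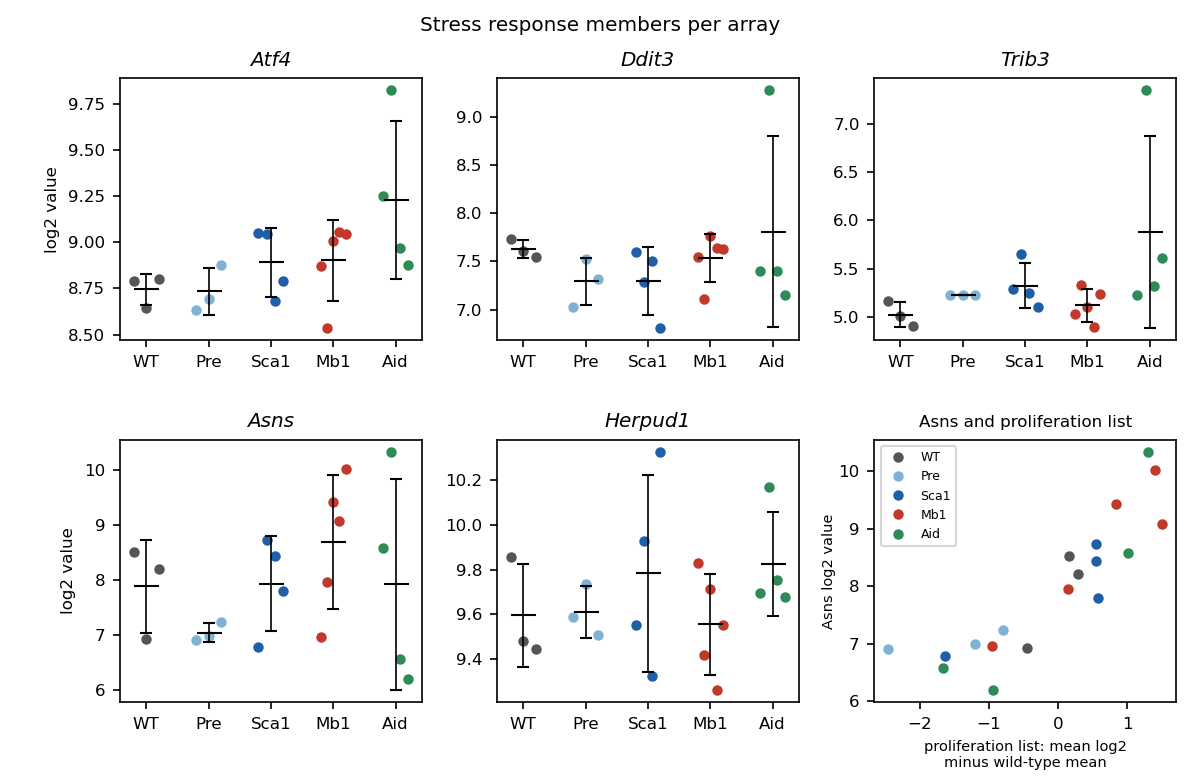
Log2 values of Atf4, Ddit3, Trib3, Asns and Herpud1, 1 point per array in the 5 groups with group mean and SD, and Asns (vertical, log2) against the mean of 11 proliferation genes minus the wild-type mean (horizontal, log2). Aid-Cre tumour replicate 2 is the highest point for Atf4 (9.82), Ddit3 (9.28), Trib3 (7.35) and Asns (10.34), and Asns is higher where the proliferation list is higher (r = 0.878 over 19 arrays).

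Other genes of the pathway, from lists that hold no member, were counted in the same fit, and by limma 0 of them passed adjustment in any comparison reported in this paragraph. In Sca1-Cre tumours against wild type 12 of 27 other COPII, COPI and retrieval genes had an unadjusted p under 0.05, 11 higher and 1 lower, against 11.4% of all genes. Arcn1, the delta subunit of the COPI coat, was higher by 0.39 ± 0.09 (adjusted p = 0.132), the cargo receptor Tmed2 by 0.68 ± 0.17 (adjusted p = 0.162) and the COPII GTPase Sar1b by 0.70 ± 0.19 (adjusted p = 0.194). Of 30 other translocation and N-glycosylation genes 12 passed, 10 higher and 2 lower, with the translocon-associated Tram1 at 0.38 ± 0.10 (adjusted p = 0.176). Of 11 other degradation genes 6 passed, 5 higher and 1 lower, the lower one being Aup1 (-0.32 ± 0.10; adjusted p = 0.222). Among 23 other folding genes 17 were above wild type and 4 had an unadjusted p under 0.05, all higher, with the smallest p at Cnpy2 (0.73 ± 0.16; adjusted p = 0.126). On the stress side 0 of 13 other sensors and regulators passed, and 1 of 19 integrated stress response targets, Psat1 (0.97 ± 0.34; adjusted p = 0.289). Xbp1, the factor spliced by IRE1, was 0.33 ± 0.20 above wild type in Sca1-Cre (adjusted p = 0.561) and 0.61 ± 0.19 in Mb1-Cre tumours (adjusted p = 0.261); these arrays do not tell its spliced from its unspliced form. In Aid-Cre tumours Atf6b, a relative of Atf6, stood at -0.50 ± 0.14 (adjusted p = 0.338).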

How the data were processed

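Biotin-labelled total RNA from each of 19 whole spleens was read on 1 Affymetrix array, per the labels' protocols. The authors deposited log2 values per probe set, made with RMA in oligo per the submitters' processing notes; no version is named there. RMA equalises array distributions, so values are relative within each array, and the number of arrays limits precision.

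Of 41345 probe sets 23521 named 1 gene, 1814 several and 16010 none (23328 matched by gene identifier to the RefSeq table, 0 renamed); the brightest probe set stood for each of 22180 genes, with no filter on dim genes. 1 fit of 5 group means over all 19 arrays (limma 3.58.1, R 4.3.3; 14 residual and 2.46 prior degrees of freedom) gave two-sided moderated tests and F-tests, adjusted by Benjamini-Hochberg over all genes at 0.05. The script was tested on simulated data. Members and lists were chosen with earlier results of these data known. Named genes are 14 anchors, every called member, the members with the smallest p of each role and comparison, and up to 4 genes per pathway list; Sel1l, and Syvn1 outside that rule, were picked after their values were seen. Correlations used permutations. In all, 9 alternatives and leaving out each array were tried; 0 columns of the deposited table were unused. RefSeq promoter windows (GRCm38.p6) were matched by symbol.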

Additional observations from a re-analysis of the deposited data

Results flagged for a closer look

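In 153 tests of single members within a group of 4 or 5 arrays, 7 arrays lay apart from the rest of their group by Dixon's criterion, which chance meets in about 1 of 20 groups, or 7.65 of 153; the number is no more than that. Of these, 4 were Aid-Cre tumour replicate 2: Hyou1 at 7.93 (others 8.55 to 8.66) and Pdia6 at 9.0 (others 9.60 to 9.71) on the low side, Ddit3 at 9.28 (others 7.16 to 7.40) and Herpud1 at 10.17 (others 9.68 to 9.75) on the high side. Dnajc3, a co-chaperone and inhibitor of PERK, stood at 9.56 in Mb1-Cre tumour replicate 1 (others 9.04 to 9.15). Calr, calreticulin, stood at 11.02 in Sca1-Cre tumour replicate 1 (others 11.44 to 11.53). Edem3 stood at 8.16 in Sca1-Cre tumour replicate 2, where the other 3 lay within 8.21 to 8.21 and the gap is small. The difference of Sec24d between the 3 Cre lines was tested by the moderated F-test of limma (adjusted p = 0.0441), a call lost under 5 of 9 alternatives and in 9 of 13 runs without 1 tumour array.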

How the results depend on the processing

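Each result was recomputed under 9 alternatives and without each array; background correction could not be redone from RMA values. Of 2688 alternative values of single genes 2664 kept their side of the threshold, 14 lost the call and 10 gained it. These counts are no measure of stability. Sec24d over the 3 tumour lines was the 1 call among members, so most values had no call to lose. That call was lost in 9 of 13 runs without 1 tumour array, and under several of the alternatives listed below. The sign changed in 62 of the 2688 values, over 27 differences, 0 of which were called. Median member differences moved by less than the spread between replicates, but that of Aid-Cre tumours, near 0, changed sign in 4 runs (-0.05 to 0.04). The cause was not tested in any case below. Over the 3 tumour lines, members called (1) became 3 with median centring (also Creb3l2 and Hspa13), 2 with a filter on dim genes, and 0 with only the groups compared, with a variance trend and robust fit, with a score of sex-linked transcripts as covariate (sex score), without both arrays with pancreatic transcripts, and with the replicate number as a block; leaving out 1 array gave 0 to 4. Over 5 groups, 0 became 1 with median centring and 0 to 1 on leaving out an array. For Sca1-Cre tumours against wild type, 0 became 0 to 1. Counts at an unadjusted p under 0.05: all tumours (14) became 9 with the block, 9 with the sex score, 8 without both pancreatic arrays and 4 to 17 without 1 array; Aid-Cre (3) became 1 with the dim filter, 1 with only the groups compared, 0 with the sex score, 1 without the pancreatic arrays and 0 to 6 without 1 array; Mb1-Cre (9) became 4 with the block and 4 to 12 without 1 array. Without 1 array, Sca1-Cre tumours (25) gave 18 to 26, pre-tumour (4) 1 to 5, tumour against pre-tumour (17) 8 to 21, 5 groups (22) 15 to 25 and 3 lines (23) 18 to 28. Replicate numbers did not pair the arrays: deviations of 33 same-numbered pairs correlated at -0.086 on average (-0.534 to 0.409), so the block shares only a number. Genes called moved too: Mb1-Cre had 61 with only the groups compared against 0, Sca1-Cre 14 with the mean of probe sets and 0 with the block against 9, and the 3 lines 35 with median centring and 2 with the block against 11. Scaling moved the median of all genes by at most 0.067. Dim members (Sec61b, Trib3 in most arrays) and 3 wild-type arrays limit what can be seen.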
